A study of Anableps anableps with 4 samples.

Results

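The genes described here encode the proteins of the cytosolic ribosome. They were chosen by gene symbol alone: symbols that begin with rpl or rps and a digit (kinases of the rps6k family left out), or with rplp0, rplp1 or rplp2, in upper or lower case, each gene identifier kept apart. The rule found 91 of the 22934 genes in the files. 85 of them had at least 1 UMI (unique molecular identifier, a count of captured RNA molecules) and 6 had none in any section. By name, 49 belonged to the large subunit, 33 to the small subunit and 4 to the acidic stalk, and 5 were paralogs or proteins that are not standard subunits (RPL3L, rpl22l1, RPS27L, RPL7L1 and RPS19BP1).

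The study profiled the eye of the four-eyed fish Anableps anableps, which sees in air and water at once, at developmental stages and in the adult. Frozen tissue was sectioned at 10 µm and placed on Visium slides, on which barcoded spots capture the poly(A) RNA of the small area of tissue above them. There were 4 sections: the head of a stage 4 animal, a capture area that held a stage 3 head together with a stage 5 eye and was not divided here (called the stage 3 and 5 area below), adult eye 1 and adult eye 2. No strain, treatment or manipulation is named for any of them, all carry batch 1, and the labels do not say whether the adult eyes came from separate animals. The p-values of class comparisons therefore measure only how class differences vary across these sections, pooled over the classes in the fit. Those of development against the adult measure only the spread between sections within a period.

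A ribosome joins a small subunit, which reads the mRNA, to a large subunit, which links amino acids into protein. Each subunit carries many proteins on a scaffold of ribosomal RNA, most of them needed in equal amounts, and vertebrate cells coordinate their synthesis through a pyrimidine tract at the 5′ end of the mRNAs that makes translation respond to growth signals. The stalk of the large subunit, made of RPLP0 with rplp1 and rplp2 proteins, recruits the elongation factors. In the vertebrate eye, lens fibres and photoreceptors devote much of their mRNA to a few specialised proteins, crystallins in the lens and phototransduction proteins in the retina.

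The sections held 4271990, 1514666, 4322947 and 5167411 UMIs in the order stage 4 head, stage 3 head and stage 5 eye, adult eye 1 and adult eye 2. Spots with at least 100 UMIs were used, and a spot joined the retina, lens, muscle, epithelium or cartilage class when it held at least 3 UMIs of the class markers at 2 or more times the odds of the section's mean spot and no other class reached that level. No ribosomal protein gene was a marker. Each class had between 44 and 422 spots in a section. Between 2 and 10 of its 10 leading genes by fold were its own markers, and at most 1 was a marker of another of these classes. A spot can hold several cells, and fewer cells of a type cannot be told apart from less RNA per cell. Pairs of sections shared between 95 and 1015 spot barcodes. The leading genes of the epithelium spots also included the actin ACTA1, listed here among the muscle markers, in 3 sections, and the myelin gene mbpa in the stage 3 and 5 area. The connective tissue list took 1.81%, 1.13%, 0.712% and 1.27% of epithelium UMIs in the order of sections above. The epithelium list itself took 1.72%, 1.79%, 6.63% and 4.94%, and the part of connective tissue in the epithelium values was not tested. In cartilage spots the cartilage list took 5.31%, 1.45%, 0.726% and 0.505% of UMIs. The connective tissue list took 1.02%, 0.482%, 1.05% and 1.10% there, and the lens list 0.525%, 0.124%, 1.72% and 1.45%. In both adult eyes the cartilage list was thus the smallest of these, and the part of the other tissues in the cartilage values was not tested.

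Ribosomal protein mRNAs were the largest in share in epithelium and cartilage spots and the smallest in retina or lens spots, except in the stage 4 head, where muscle was lowest. In epithelium spots they took 48.6%, 39.5%, 45.2% and 42.5% of all UMIs in the order of sections above. In cartilage spots they took 48.3%, 45.03%, 43.0% and 39.6%. In retina spots they took 24.8%, 22.0%, 16.1% and 19.3%. Each of the 4 epithelium values and each of the 4 cartilage values therefore lay above every retina value. Muscle spots gave 17.8%, 31.3%, 26.2% and 23.3%, and the stage 4 head was the section with the lowest muscle share. Lens spots gave 28.7%, 37.3%, 10.4% and 9.20%, so that the lens lay above the retina in both developmental sections and below it in both adult eyes. The exact Clopper-Pearson 95% intervals of these 24 shares, with those of whole sections, spanned at most 0.905 percentage points and cover counting error only.

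**Figure D1:**
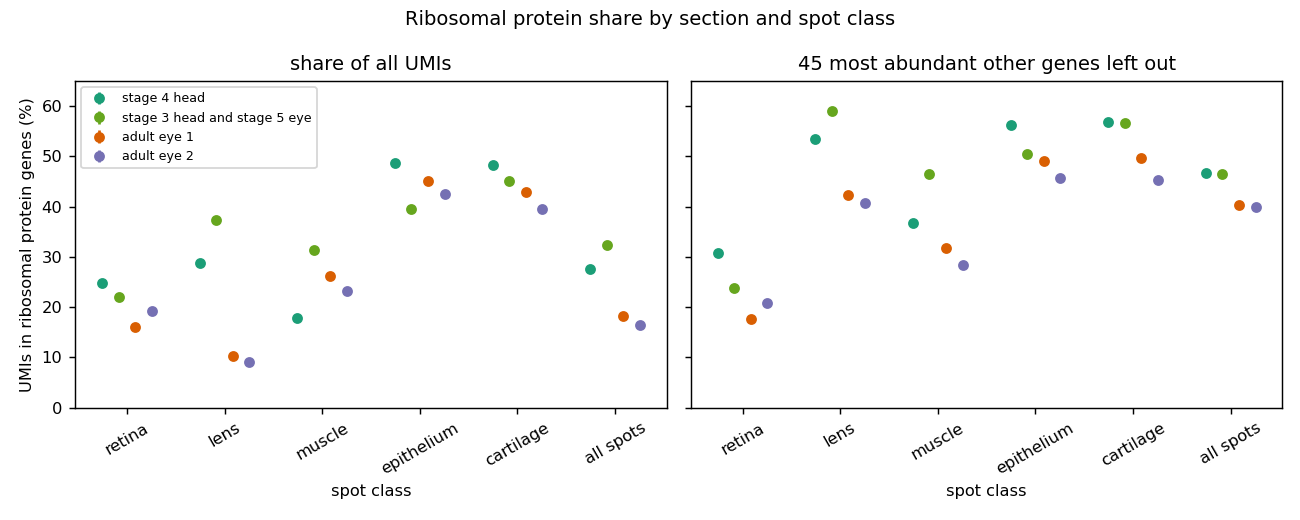
The percentage of UMIs in the 91 ribosomal protein genes (vertical axis) is plotted for 5 spot classes and all spots of each section (horizontal axis). The left side gives the share of all UMIs, and the right side leaves out 45 other genes abundant in whole sections. There is 1 point per section, with bars on the left for the exact 95% counting interval, mostly smaller than the points. Lens points of both adult eyes, at 10.4% and 9.20%, lie below the retina on the left and rise above it, to 42.3% and 40.8%, on the right.

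These shares moved with the few transcripts that fill each tissue. Crystallins by symbol took 33.8%, 24.8%, 48.3% and 46.2% of the UMIs of lens spots. With crystallin UMIs left out of the total, ribosomal protein genes made up 43.4%, 49.6%, 20.1% and 17.1% of lens UMIs. With the 45 most abundant other genes left out, a choice made after the data were seen, the lens gave 53.4%, 59.0%, 42.3% and 40.8%, above the retina of the same section in all 4 sections. The same total gave muscle spots 36.8%, 46.6%, 31.8% and 28.4%. It gave retina spots 30.8%, 23.7%, 17.6% and 20.9%, the lowest of the 5 classes in each section. How far the way the list was drawn sets this order was not tested. On that scale the epithelium held 56.2%, 50.6%, 49.0% and 45.7%, and the cartilage 56.9%, 56.6%, 49.7% and 45.4%. Markers of other tissues were also found in these spots: the blood marker list took 9.71% of retina UMIs in the stage 4 head against 2.41%, 0.30% and 0.26% in the other sections, and 4.32% to 6.86% of cartilage UMIs. The lens list took 3.12%, 0.499%, 3.29% and 2.67% of retina UMIs, and the retina list itself 3.19%, 3.56%, 3.62% and 3.21%. The part of these other tissues in the shares was not tested.

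Development was set against the adult next. Each developmental group had 1 section, so the shares of the 2 developmental and 2 adult sections were compared without a test, and the difference between the adult eyes is the only measure of spread within a group. Over whole sections, ribosomal protein genes took 27.7% and 32.4% of UMIs in the stage 4 head and the stage 3 and 5 area, against 18.3% and 16.5% in the adult eyes. The mean of the developmental sections was 1.73 times the adult mean of 17.4% ± 1.24 (SD, n = 2). The tissue make-up differs between a head section and an eye section, and with crystallins left out the ratio was 1.20. On all UMIs lens spots differed most, at 3.38 times an adult mean of 9.78% ± 0.830 (SD, n = 2). With the 45 abundant genes left out the lens ratio was 1.35, below the 1.42 of retina and the 1.38 of muscle. Retina spots were 1.32 times an adult mean of 17.7% ± 2.25 (SD, n = 2), or 2.35 times with Leiden clusters, and cartilage spots 1.13 times a mean of 41.3% ± 2.39 (SD, n = 2), both without overlap. The Leiden retina was not drawn alike in both periods. A cluster with RBPMS2 and PCP4 among its leading genes was named retina in the stage 3 and 5 area. In the adult eyes such clusters were named brain and nerve or left unnamed, and the part of this was not tested. In muscle and epithelium spots the developmental and adult shares overlapped, at ratios of 0.992 and 1.00. With the 45 abundant genes left out both developmental sections lay above both adult eyes in all 5 classes.

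Gene by gene, nearly all ribosomal protein genes were higher in lens, muscle, epithelium and cartilage spots than in retina spots, relative to the typical gene of the same spots. UMIs were summed per class and section (20 sums) and fitted with edgeR's quasi-likelihood test with the section as a block, trimmed mean (TMM) normalization and Benjamini-Hochberg adjustment over the 3228 genes that passed the expression filter, 80 of them ribosomal protein genes. Of these 80, 78 rose in lens spots (21.3% of all genes tested rose), 76 in muscle (25.4%), 74 in epithelium (19.1%) and 75 in cartilage (18.8%) at an adjusted p under 0.05. None fell in any class by that test, where 29.7%, 22.0%, 20.5% and 20.3% of all genes tested fell. Their median log2 fold changes over retina were 2.52, 1.56, 2.01 and 1.92, against medians of -0.35, 0.11, -0.08 and -0.27 over all genes tested.

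The scale decided how this appeared. With library totals alone, the median of all genes shifted to -3.15 in lens, -1.09 in muscle, -1.03 in epithelium and -1.09 in cartilage. On that scale RPLP0 rose and RPS19BP1, rps27.1 and RPL7L1 fell in lens, 1 and 3 of 80 (2.57% and 79.6% of all genes). None rose and 1, RPS19BP1, fell in muscle (6.69% and 34.9%), 61 rose and the same gene fell in epithelium (7.84% and 33.1%), and 62 rose and none fell in cartilage (8.86% and 29.9%). A change of scale moves all genes of a sum together, so the distance from the median gene is nearly fixed and is no second test. It was 2.87 and 2.94 log2 units in lens, 1.45 and 1.39 in muscle, 2.10 and 2.09 in epithelium and 2.19 and 2.20 in cartilage, with TMM and with totals in that order. The higher level in epithelium and cartilage therefore held on both scales for 61 and 62 genes, in lens for RPLP0 alone and in muscle for none.

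**Figure D2:**
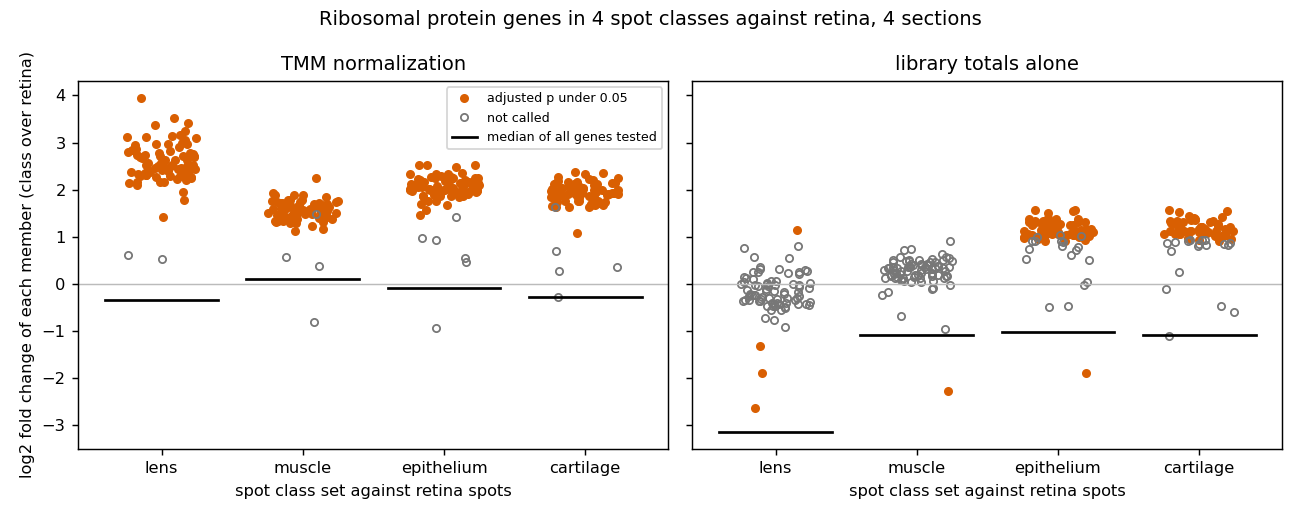
Each point is 1 of the 80 ribosomal protein genes tested, placed by its log2 fold change over retina spots (vertical axis) in 4 spot classes (horizontal axis), with TMM on the left and library totals alone on the right, filled where the adjusted p was under 0.05, with a black line at the median of all 3228 genes. The bulk of the points lies above the line in every class on both scales, with medians of 2.52 in lens on the left and -0.21 on the right.

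Large and small subunit genes changed together. Of 44 large subunit genes tested, 44 rose in lens, 43 in muscle, 41 in epithelium and 42 in cartilage with TMM, with medians of 2.51, 1.55, 2.02 and 1.94 log2 units. Of 29 small subunit genes, 29, 28, 28 and 28 rose, with medians of 2.49, 1.58, 2.11 and 1.92. With library totals alone the counts that rose were 0, 0, 33 and 34 for the large subunit and 0, 0, 24 and 25 for the small subunit. Of all genes tested, 21.3%, 25.4%, 19.1% and 18.8% rose with TMM. With totals alone 2.57%, 6.69%, 7.84% and 8.86% did. By UMIs the subunits kept similar proportions in whole sections. Large subunit genes took 53.0%, 53.8%, 52.5% and 52.9% of ribosomal protein UMIs in the 4 sections. By class they took 53.9%, 55.8%, 54.3% and 54.5% in retina spots. In lens spots they took 51.6%, 51.2%, 50.9% and 51.5%, and in epithelium 53.5%, 53.7%, 52.4% and 52.5%. Every lens and epithelium value lay below every retina value, while muscle and cartilage values overlapped those of retina.

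The large subunit genes with the smallest adjusted p-values included rpl12, which lies at the base of the stalk, rpl4, which lines the exit tunnel for the growing protein, and RPL5, which carries a small ribosomal RNA into the subunit. In lens spots rpl12 was 3.37 ± 0.36 (SE) log2 units above retina, rpl4 was 2.95 ± 0.34 and RPL5 (ENSABLG00000001575) was 2.91 ± 0.36, with adjusted p-values of 9.93e-08 to 6.55e-07 by edgeR's quasi-likelihood test and TMM. None of these 3 passed with library totals alone (adjusted p = 0.10 to 0.57). In muscle spots rpl4 was 1.93 ± 0.33 and rpl6 1.83 ± 0.33 log2 units above retina with TMM (edgeR adjusted p of 3.76e-05 and 7.08e-05), and neither passed with totals alone. Epithelium spots showed rpl12 at 2.24 ± 0.35 log2 units above retina, and cartilage spots showed rpl4 at 2.17 ± 0.33. These passed on both scales.

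Among small subunit genes, RPS2, which lines the channel where mRNA enters, held 4453, 4757, 3082 and 3613 CPM (UMIs per 1000000 UMIs of the class in that section) in retina spots of the 4 sections. It held 11308, 10885, 11918 and 10768 CPM in epithelium spots, without overlap. The log2 difference was 2.52 ± 0.38 with TMM (edgeR adjusted p = 1.07e-05), higher in 4 of 4 sections. In lens spots RPS2 held 8141, 14876, 2521 and 2180 CPM, above the retina in development and below it in the adult. RPS18 and RPS20 were among the leading epithelium genes at 2.11 to 2.19 log2 units with TMM. The leading cartilage genes were RPS9, RPS20, rps6 (the target of the S6 kinases), rps4x and RPS18 at 2.12 to 2.37. In muscle RPS18, RPS14 and rps15 lay 1.65 to 1.78 log2 units above retina with TMM, and none of the 3 passed with totals alone.

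The 5 genes with the most UMIs were rps12 (119677 UMIs over all sections), RPS26 (93098), RPS29 (84478), rpl37 (82509) and RPS2 (77861). In epithelium spots rps12 held 15514, 13964, 17131 and 15659 CPM, and in retina spots 6654, 5770, 4516 and 5609 CPM. RPS26, which lies where mRNA leaves the small subunit, held 14605, 11072, 12166 and 9505 CPM in epithelium against 8286, 6160, 4106 and 4891 CPM in retina. The groups did not overlap for either gene. RPS29 in lens spots ran from 6996 and 8368 CPM in development to 2488 and 2133 CPM in the adult, and rpl37 from 6609 and 8212 to 2228 and 2056 CPM. These are levels of each gene in its own right. The counts come from tags and are not scaled by transcript length, so no level is compared between genes.

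Lens spots differed from retina spots in the make-up of the ribosomal protein pool itself, in part as other classes did. A further fit, added after the data were seen, used the summed ribosomal protein UMIs as library size, so that a fold change is relative to the pool. In lens 8 members rose (3.16% of all 3228 genes did) and 18 fell (81.4% did) relative to the pool at an adjusted p under 0.05 by edgeR's quasi-likelihood test. Without adult eye 1 the counts were 5 and 6, and the 18 became 8 without the stage 3 and 5 area and 9 without the stage 4 head. 3 members rose and 5 fell in every one of 7 fits, which were this fit, the fits without each section, the fit with clustered spot classes and the fit without an expression filter. The same fit called 2 higher and 5 lower in muscle (7.19% and 51.8% of all genes), 4 higher and 7 lower in epithelium (3.84% and 71.7%), and 2 higher and 6 lower in cartilage (3.41% and 69.0%). Leaving out a section left 0 to 3 higher in each of these classes, with none without adult eye 1 in muscle and epithelium and without either adult eye in cartilage. Of those only RPS19BP1 in all 3 classes and rps27.1 in epithelium and cartilage, all lower, passed in all 7 fits. Some lens calls recurred in these classes. In epithelium rps12 (0.37 log2 units), RPS2 (0.41) and RPS19 (ENSABLG00000004344, 0.44) were also higher than in retina, in 2, 3 and 5 of 7 fits. RPL38 was also lower in epithelium (-0.41, 6 of 7 fits) and in cartilage (-0.30, 1 of 7).

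RPLP0, the base of the stalk, was the most enriched. It took 2.41%, 3.20%, 3.48% and 3.45% of ribosomal protein UMIs in lens spots. In retina spots it took 1.20%, 1.16%, 1.48% and 1.51%, so that all 4 lens values lay above all retina values. The difference was 1.23 ± 0.18 log2 units relative to the pool (edgeR adjusted p = 9.36e-06). As a level RPLP0 stood at 6928, 11939, 3611 and 3172 CPM in lens against 2984, 2557, 2380 and 2919 CPM in retina, higher in 4 of 4 sections. It was the gene that rose in lens with library totals alone too, by 1.14 ± 0.37 log2 units (edgeR adjusted p = 0.00742).

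Next came rps12, of the beak of the small subunit, and rpl12. rps12 took 5.17%, 5.72%, 4.66% and 4.53% of the pool in lens and 2.68%, 2.62%, 2.80% and 2.91% in retina, a difference of 0.85 ± 0.16 log2 units (edgeR adjusted p = 6.75e-05). rpl12 differed by 0.74 ± 0.15 log2 units (edgeR adjusted p = 0.000144), at 3.05%, 3.57%, 2.64% and 2.73% of the pool in lens. The lens and retina values overlapped for neither gene. RPS2, RPS19 (ENSABLG00000004344), rpl10 and rps8a, at 0.29 to 0.56 log2 units, were also among the 8 that rose, and each of these lost its call in at least 1 of the 7 fits.

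Lower in the lens pool in all 7 fits were rpl30, rpl15, rpl35a and RPL38, all of the large subunit, and RPS19BP1. The median of all genes tested was -2.99 log2 units on that scale, so RPS19BP1, at -2.25, lay above the median gene. rpl30 took 0.28%, 0.16%, 0.23% and 0.23% of the pool in lens against 0.44%, 0.40%, 0.39% and 0.38% in retina. The pool shares of rpl15 were 0.51%, 0.51%, 0.48% and 0.47% in lens and 0.93%, 0.72%, 0.81% and 0.78% in retina. Neither gene's lens values reached its retina values. Their differences were -0.89 ± 0.24 and -0.71 ± 0.18 log2 units, and those of rpl35a and RPL38, which mouse embryos need for a normal skeleton, were -0.50 ± 0.12 and -0.49 ± 0.13 (edgeR adjusted p of 0.00114 to 0.0025 for the 4).

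**Figure D3:**
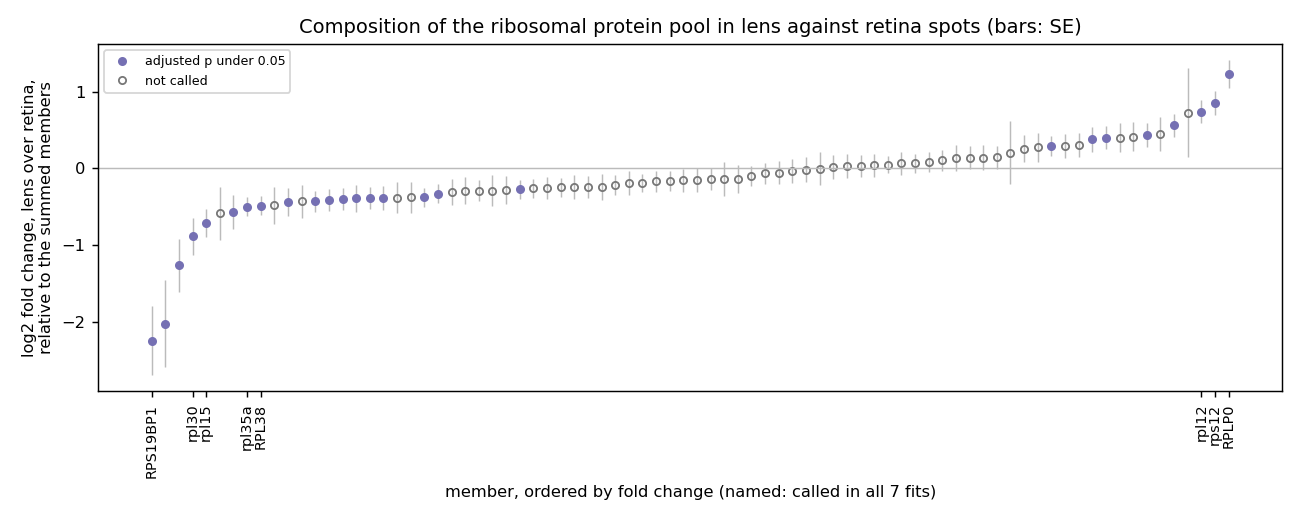
The 80 ribosomal protein genes tested are ordered along the horizontal axis by their log2 fold change in lens over retina spots relative to the summed ribosomal protein UMIs (vertical axis), with bars for the standard error and filled points where the adjusted p was under 0.05. RPLP0 at 1.23, rps12 at 0.85 and rpl12 at 0.74 stand at the right end, and RPS19BP1 at -2.25 stands at the left end. The median of all genes tested, not drawn, was -2.99.

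The 4 stalk genes, RPLP0, rplp1 and 2 rplp2l identifiers, took a larger part of the pool in adult than in developmental sections in every class but muscle. In lens spots they took 6.48% (95% interval 6.34% to 6.61%) and 6.91% (6.75% to 7.08%) in development, and 8.51% (8.41% to 8.61%) and 8.50% (8.41% to 8.60%) in the adult. In retina spots the values were 4.83% and 4.27% against 5.88% and 5.85%, in epithelium 4.57% and 4.61% against 5.48% and 5.45%, and in cartilage 4.44% and 4.31% against 4.93% and 5.13%. Muscle gave 6.85% and 5.51% against 5.51% and 5.33%, with the stage 4 head above the rest. Over whole sections the stalk took 5.54% and 5.08% in development and 6.73% and 6.72% in the adult. The gap between development and adult exceeded that between the adult eyes in those 4 classes. This pattern was noticed in the data and, with 1 section per developmental group, was not tested. No stalk gene but RPLP0 was called in the lens pool.

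**Figure D4:**
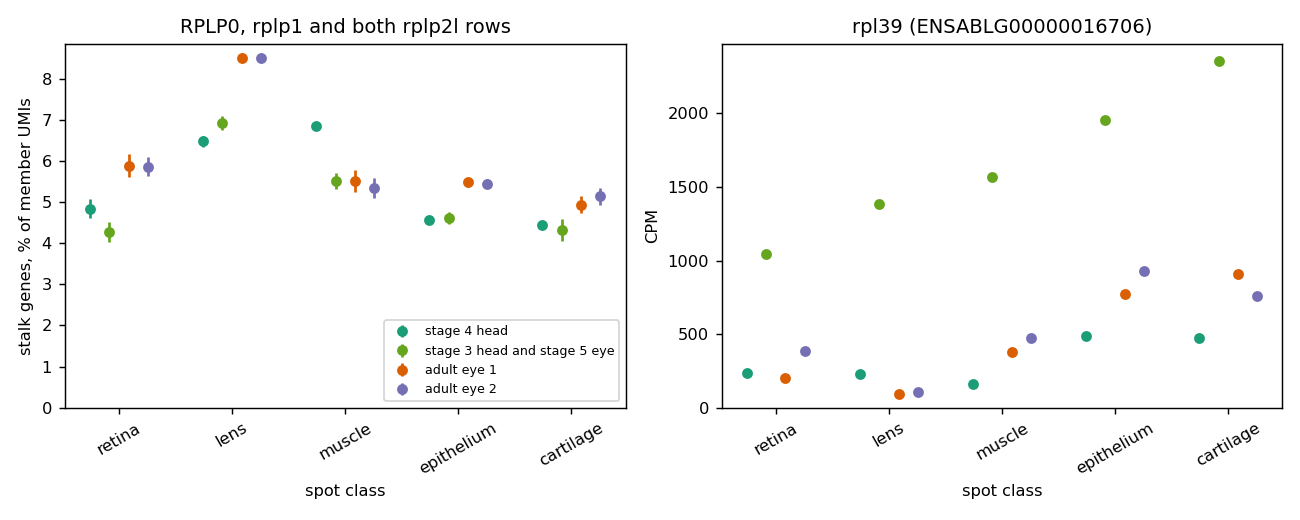
On the left, the share of ribosomal protein UMIs in the 4 stalk genes (vertical axis, percent, bars for the exact 95% counting interval) is plotted by spot class and section, and the adult lens points reach 8.51% and 8.50%. On the right, the level of rpl39 (ENSABLG00000016706, CPM) is highest in the stage 3 and 5 area in each class, up to 2358 CPM in cartilage.

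By gene, nearly all members were higher in both developmental sections than in both adult eyes in lens spots and over whole sections (78 of 80 and 75 of 82). So were 1209 of 1955 and 2091 of 8746 of all genes. In retina 55 of 79 members were (308 of 2046 genes), and in cartilage 29 of 78 (160 of 712). In epithelium 9 of 78 were (315 of 1875), and in muscle 2 of 79 (113 of 1732). Lower in both developmental sections were 16 members in muscle, 15 in epithelium and 11 in cartilage (1086, 858 and 275 of all genes). In lens, retina and whole sections 1 member each was (172, 795 and 1125 of all genes). A stricter rule counted a gene where both developmental sections lay at least 1.5-fold above, or below, both adult eyes in CPM, among genes with at least 50 UMIs in the class over the 4 sections. In lens 76 of 80 ribosomal protein genes were higher in development and 1 was higher in the adult (41.1% and 3.22% of all genes). In retina 2 of 79 were higher in development and none in the adult (4.99% and 16.5%), in muscle none and 3 of 79 (3.06% and 43.1%), in epithelium none and none of 78 (8.32% and 24.9%), and in cartilage 1 and none of 78 (7.87% and 20.6%). Over whole sections 32 of 82 were higher in development and none in the adult (10.3% and 4.97%). Without adult eye 1 the whole-section count was 53, and without adult eye 2 the retina count was 14. With Leiden clusters in place of marker classes the retina count was 63, but the clusters named retina differed between the periods, as given above. Shares of all genes are not given for these alternative counts, so they cannot be set against the general shift. An edgeR quasi-likelihood fit of 2 against 2 sections with TMM called only 6 of 81 members higher in developmental lens, where 7.76% of all genes were. In adult lens it called 1 member higher, and 232 of 3067 genes. It called 27 members higher in developmental muscle (8.6%) and 6 in cartilage (4.83%). In retina no gene of the 2824 tested was called in either direction, members included. In epithelium no member was called, where 165 of 2736 genes were called higher in development and 124 in the adult. No member had an unadjusted p under 0.05 in retina or epithelium.

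The median gene again differed in level between the periods. Its log2 difference, development minus adult, was 0.88 in lens, -0.46 in retina, -1.07 in muscle, -0.41 in epithelium, -0.21 in cartilage and 0.11 over whole sections. Relative to the median gene, 37 ribosomal protein genes were higher in development and 1 in the adult in lens (16.0% and 14.0% of all genes). In retina 36 were higher in development and none in the adult (11.5% and 6.84%). Muscle had 31 and 1 (14.6% and 15.3%), epithelium none in either direction (12.7% and 16.2%) and cartilage 5 and none (12.1% and 18.7%). Over whole sections 22 and none passed (8.82% and 5.92%). With crystallins left out of the totals instead, 72 were higher in developmental and 1 in adult lens (28.6% and 6.8%), 1 and none in retina (4.35% and 17.3%), and over whole sections none in development and 1, the second RPS19, in the adult (4.45% and 11.7%). The ribosomal protein genes thus stood on the developmental side of the median gene in every class, with medians of 1.70 in lens, 0.39 in retina, -0.12 in muscle, 0.02 in epithelium and 0.15 in cartilage (log2, development minus adult, before that shift).

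In lens spots RPL27A went from 5121 and 6525 CPM in development to 1470 and 1403 CPM in the adult, a smallest ratio between sections of 3.48. RPL23, which faces the small subunit, went from 4405 and 5714 CPM to 1277 and 1140 CPM, a smallest ratio of 3.45. RPS18, RPS16, RPS26, rpl28 and RPL38 were next among those named, with smallest ratios of 3.33 to 3.41. The genes past the threshold in retina were rpl28, at 4549 and 4632 CPM against 2579 and 2647 CPM, and rps10, at 4653 and 4267 CPM against 2203 and 2812 CPM. In cartilage rps12 passed, at 17073 and 18625 CPM against 11042 and 9852 CPM. Over whole sections RPL27A, RPL23 and rps10 led, with smallest ratios of 1.99, 1.95 and 1.86, and RPS26, rpl28, RPS16 and RPL34 followed at 1.74 to 1.85.

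**Figure D5:**
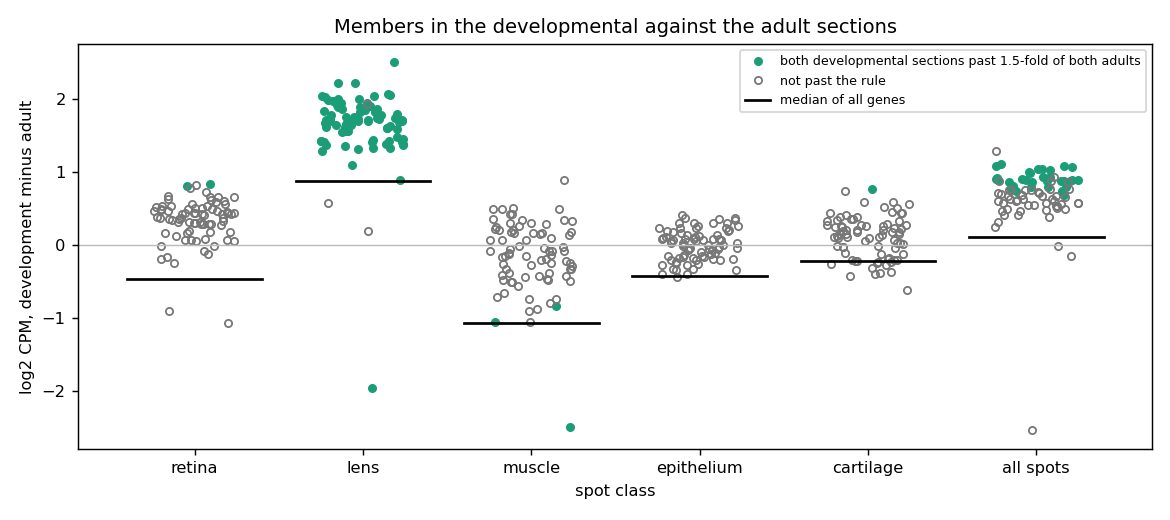
Each point is 1 ribosomal protein gene, placed by the log2 difference between the developmental and the adult sections in CPM (vertical axis) in 5 spot classes and over all spots (horizontal axis), filled where both developmental sections lay 1.5-fold above or below both adult eyes, with a black line at the median of all genes. The lens cloud has a median of 1.70 above a median gene at 0.88, and the epithelium cloud has a median of 0.02 above a median gene at -0.41.

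Whether the distance of a class from retina differed between the periods was tested as an interaction in the edgeR quasi-likelihood model. No ribosomal protein gene was called in any class with TMM. Of all genes, 3.35% were called higher and 0.774% lower in adult than in developmental lens relative to retina, 0.279% and 0.217% in muscle, 0.186% and 0.713% in epithelium, and 0.341% and 0.031% in cartilage. At an unadjusted p under 0.05 there were 20 in lens (19.5% of all genes), 37 in muscle (13.7%), 0 in epithelium (11.3%) and 1 in cartilage (11.4%). The medians, adult minus development, were 0.72 in lens and -0.84 in muscle, against 0.23 and -0.18 over all genes. With library totals alone 52 of 80 were lower in adult lens and none higher (31.4% and 0.279% of all genes), and the median turned to -1.31, against -1.74 over all genes. With TMM, leaving out the stage 3 and 5 area gave 32 calls that were higher in adult lens (7.01% of all genes) and 14 lower in adult muscle (6.43%). Leaving out the stage 4 head gave 3 (5.3%) and 11 (1.91%). With Leiden clusters 74 of 82 members were higher in adult lens (9.31%) and 38 in adult epithelium (2.81%), relative to Leiden retina. As given above, the clusters named retina differed between the periods, and the part of that reference in these calls was not tested. The absence of calls thus held for the TMM fit of all 4 sections with marker classes, while these alternatives gave calls.

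The adult eyes differed little from each other. Over whole sections 80 of 81 ribosomal protein genes with enough UMIs lay within 1.5-fold, against 89.1% of all genes, and the numbers were 79 of 80 in lens (85.9% of all genes), 75 of 77 in retina (88.6%), 72 of 76 in muscle (86.4%), 77 of 77 in epithelium (76.6%) and 75 of 75 in cartilage (82.3%). The exception over whole sections was RPL7A, a large subunit gene, with 318 UMIs in adult eye 1 against 52 for the second eye. The stage 4 head held 342 of its UMIs, and the stage 3 and 5 area 51. RPL7A was high in 1 section of each period and low in the other.

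Of the paralogs, rpl22l1 rose with TMM as most members did, and RPL3L had too few UMIs to be tested (88 in all). RPL3L, which replaces RPL3 in striated muscle of mammals, was found in muscle spots, with 47, 1, 8 and 26 UMIs, and had at most 1 UMI in any other of the 5 classes of a section. Its muscle levels were 23.3 CPM (exact Poisson 95% interval 17.2 to 31.0) and 6.16 CPM (0.156 to 34.3) in development and 76.0 CPM (32.8 to 150) and 180 CPM (118 to 264) in the adult. Both adult values lay at least 3.26 times above both developmental ones. Muscle markers named those spots, and the part that muscle type plays was not tested. rpl22l1, the paralog of RPL22, rose in all 4 classes with TMM (1.46 to 2.51 log2 units) and in none with totals alone. Relative to the pool it was called lower in epithelium, at -0.61 ± 0.23 log2 units (edgeR adjusted p = 0.0214), in 3 of 7 fits. RPS27L had 5 UMIs in all.

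RPL7L1 and RPS19BP1 were the members that rose in no class. Both are known in human cells as factors of ribosome assembly in the nucleolus. RPS19BP1 held 59.1, 83.0, 88.5 and 77.7 CPM in retina spots and 15.8, 8.19, 12.1 and 12.3 CPM in lens spots, on 8 to 16 and 2 to 45 UMIs a section. Its levels in epithelium were 16.7, 26.1, 21.2 and 18.1 CPM. All 4 sections thus had their retina value above the lens and epithelium values. Relative to the pool its difference from retina was -2.25 ± 0.45 log2 units in lens and -3.01 ± 0.48 in epithelium (edgeR adjusted p of 0.000166 and 3.18e-05). Medians of all genes on that scale were -2.99 and -2.14, so RPS19BP1 lay above the median gene in lens and below it in epithelium. With library totals alone it fell in lens, muscle and epithelium, by 2.63, 2.27 and 1.90 log2 units. With TMM it passed in no class (adjusted p = 0.12 to 0.69). RPL7L1, with 4 to 11 UMIs in the retina of a section, fell in lens relative to the pool in 6 of 7 fits and with totals alone, and not with TMM.

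Several symbols belonged to more than 1 gene identifier, and reads of near-identical copies could not be told apart here, so their split is uncertain. The second RPS19 (ENSABLG00000009014) was the member that was higher in adult lens, at 34.5 CPM (exact Poisson 95% interval 28.0 to 41.9) and 36.2 CPM (30.3 to 42.9) against 4.52 CPM (0.547 to 16.3) and 8.19 CPM (0.992 to 29.6) in development. In retina it held 7.38, 99.6, 83.0 and 117 CPM, lowest in the stage 4 head, and it had at most 1 UMI per section in muscle, epithelium and cartilage spots. The main RPS19, needed for maturation of the small subunit, held 5340 and 7196 CPM in developmental and 2062 and 1735 CPM in adult lens. In CPM the copies thus moved in opposite directions there, while 76 of 80 members were higher in developmental lens by the fold rule. Of the lens pool the main RPS19 took 1.86% and 1.93% in development and 1.99% and 1.89% in the adult, which overlap.

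rpl39 (ENSABLG00000016706), a small protein of the exit tunnel, set the stage 3 and 5 area apart from the other 3 sections in every class. It stood at 280, 1566, 261 and 282 CPM over whole sections. The value of that section was 5.54 times the next highest over whole sections, 6.13 times in lens, 3.32 in muscle, 2.73 in retina, 2.60 in cartilage and 2.10 in epithelium. Stages 3 and 5 share that area and cannot be told apart. The second rpl39 (ENSABLG00000008269) had 24 UMIs in all, 16 of them in the stage 4 head.

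The second RPL19 (ENSABLG00000003819) was higher in adult muscle, at 665 and 887 CPM against 369 and 370 CPM in development, while the main RPL19 held 2918 and 2225 CPM against 1753 and 3144 CPM, which overlap. The small subunit gene rps27.1 also passed there in favour of the adult, at 152 and 139 CPM against 90.9 and 74.0 CPM. In muscle spots 43.1% of all genes passed in that direction, and the median gene stood at -1.07 log2 units, development minus adult. Relative to the median gene only 1 member was still higher in adult muscle. The second RPL5 (ENSABLG00000007050) rose in lens and muscle with TMM, by 2.98 and 1.70 log2 units, and in neither with totals alone. It held 96.0 to 174 CPM in retina and 108 to 178 CPM in epithelium, and was not called in epithelium or cartilage (edgeR adjusted p = 0.10 and 0.25 with TMM). The 2 rplp2l identifiers kept close shares of the pool, 1.39% to 1.76% and 0.86% to 1.09% over whole sections. One identifier each of rpl6, RPS3A, RPS20 and rpl5b and 2 of RPL36A had no UMI, and the second RPS25 had 1.

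Other genes of translation were counted beside them from lists made with results of these data known. Of 26 elongation and initiation factors tested, 22 rose and 1 fell in lens with TMM, and 13 and 1 in muscle. In epithelium 14 and 1 did, and in cartilage 14 and 2. Their medians were 2.31, 0.96, 1.09 and 1.21 log2 units. Of all genes 21.3%, 25.4%, 19.1% and 18.8% rose and 29.7%, 22.0%, 20.5% and 20.3% fell. With library totals alone 1, 0, 1 and 7 factors rose and 8, 2, 2 and 2 fell. On that scale 2.57%, 6.69%, 7.84% and 8.86% of all genes rose and 79.6%, 34.9%, 33.1% and 29.9% fell. Of 9 other mRNAs known to carry the pyrimidine tract, 7 rose in each class with TMM. With totals alone 2 fell in lens, none passed in muscle, and 3 and 4 rose in epithelium and cartilage. The shares of all genes just given apply to these counts too. The ribosome biogenesis genes, 6 tested, rose in lens in 1 case, NHP2 at 1.87 ± 0.50 log2 units, and otherwise passed in neither direction with TMM, while with totals alone 5 of the 6 fell in lens, where 79.6% of all genes fell, and NHP2 stood at -0.96. Of 18 genes of the mitochondrial ribosome, 12 rose in lens (21.3% of all genes did) and 5 in muscle (25.4%), none rose in epithelium or cartilage, and 1 fell in cartilage, with medians of 1.28, 0.83, -0.27 and -0.49 with TMM. With totals alone none of the 18 rose, and 14, 1, 4 and 4 fell, where 79.6%, 34.9%, 33.1% and 29.9% of all genes did.

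Most members followed the summed level of the members closely across the 20 sums. The correlation of a member's log2(CPM + 1) with the summed level of the members had a median of 0.957 over 80 members, and 67 exceeded 0.9, against 15 of 3148 other genes tested. The least alike were the second RPL5 (-0.016), RPS19BP1 (0.010) and RPL7A (0.156). Among the other genes most like the summed members were faua (0.974), which encodes a ubiquitin-like protein fused to a small subunit protein, RACK1 (0.937), which sits on the small subunit, naca (0.936), DCN (0.924), EEF1B2 (0.924) and 3 genes without a symbol in the files, led by ENSABLG00000012191 (0.989). Each member is part of the summed level and the other genes are not, which favours the members. The sums also share sections and totals, so these values describe and test nothing.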

How the data were processed

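Gene expression was measured with the Visium assay in 4 sections: 1 in each developmental group and 2 in the adult group. Per the file headers, Space Ranger 3.1.3 made the deposited matrices, whose values are unnormalized counts of UMIs. The genome build, annotation and aligner settings are not given in the sources used here. UMIs were read near the 3′ end, and reads of near-identical gene copies could not be examined. No sequence or coordinate was used.

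Spots with at least 100 UMIs were classed by marker genes, and counts were summed per class and section. edgeR 4.0.16 in R 4.3.3 was used with TMM, filterByExpr, the quasi-likelihood test, the section as a block and Benjamini-Hochberg adjustment over all genes tested, at 0.05. Each standard error (SE) given with an edgeR value is the absolute log2 fold change divided by the square root of the test's F statistic. It thus restates the test and is no separate measure of spread. The fit of lens against retina was also run on simulated counts in which equal numbers of genes were raised and lowered. That run does not test TMM under the shift in make-up seen between real lens and retina spots. Comparisons of development with the adult used a 1.5-fold rule without a test, with an edgeR fit of 2 against 2 sections as an alternative. Alternatives were library totals, DESeq2 1.42.0, Leiden clusters (scanpy 1.11.5), other totals and filters, and leaving out sections.

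The members, marker lists and other gene lists were chosen with earlier results of these data known. Named genes were up to 6 per direction with the smallest adjusted p in a tested contrast, up to 8 per direction by the smallest ratio between periods, paralogs, symbols with several identifiers, stalk genes and the 5 genes with the most UMIs. Others, named for a count of exceptions or for their place in the pool, were chosen after their values were seen. Some of the genes that this rule selects are not reported here.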

Additional observations from a re-analysis of the deposited data

Results flagged for a closer look

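The share of ribosomal protein UMIs in lens spots minus that in retina spots was 3.93 percentage points in the stage 4 section, 15.3 in the area with stages 3 and 5, -5.75 in adult eye 1 and -10.1 for adult eye 2. Both developmental sections moved one way and both adult eyes the other, and this difference in share was not tested. With crystallins left out of the total the differences were 17.9, 27.5, 3.41 and -2.70 points. With the 45 other genes abundant in whole sections left out they were 22.6, 35.3, 24.7 and 19.9 points, positive in all 4 sections. Tissues with many UMIs weighed most in that list, as given above.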

How the results depend on the processing

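No paired analysis was possible because the developmental groups have 1 section each and share no numbered pairs with the adult group; the section was a block in every class comparison. The ratio of developmental to adult share (3.38 in lens, 1.73 over whole sections) was 2.50 and 1.20 without crystallins, 2.50 and 1.24 without marker genes, 2.20 and 1.27 as a median over spots, and 1.35 and 1.16 without 45 abundant genes. That last total gave 1.38 in muscle and 1.13 in epithelium, where the other ratios were 0.888 with Leiden clusters, 0.959 without markers and 1.07 over spots. With Leiden clusters the retina ratio was 2.35, and no cartilage ratio could be had. The clusters named retina differed between the periods, which bears on every Leiden value set against retina or between periods in retina. In class comparisons totals alone gave 1 lens and 0 muscle members higher and 3 lens members lower. DESeq2, Leiden clusters, totals alone and no filter each called 1 member lower in muscle and epithelium, as no filter did in cartilage; leaving out a section gave 0 to 1 in each, the 1 without either developmental section. Differences between periods rose to 74 members higher in lens and 38 in epithelium with Leiden clusters and 52 lower in lens with totals alone; leaving out a section gave 0 to 32 in lens and 0 to 14 lower in muscle, where no filter gave 1. Relative to the pool, leaving out a section gave 5 to 6 higher and 6 to 12 lower in lens, 0 to 2 and 2 to 4 in muscle, 0 to 3 and 4 to 9 in epithelium, and 0 to 3 and 2 to 5 in cartilage. Leiden clusters gave 5 and 10 in lens, 1 and 3 in muscle, 2 higher in epithelium and 0 in cartilage. No filter gave 4 and 7, 1 and 2, 0 and 0 in those positions. By the fold rule, a 2-fold limit left 0 members higher in development in retina, cartilage and whole sections and 1 higher in adult muscle. Relative to the median gene the developmental counts were 36 in retina, 37 in lens, 31 in muscle and 5 in cartilage, and 1 in adult muscle. edgeR on 2 against 2 sections called 0 higher in development in retina, 6 in lens, 27 in muscle and 6 in cartilage. Of all genes it called none in retina, 7.76% in lens, 8.6% in muscle and 4.83% in cartilage. It called 1 member higher in adult lens and 0 in adult muscle. Leiden clusters gave 63 higher and 1 lower in developmental retina, and leaving crystallins out gave 1 in retina, and over whole sections 0 higher and 1 lower. Leaving out 1 adult eye gave 2 to 14 higher and 0 to 1 lower in retina, 0 to 1 and 4 to 5 in muscle, 1 to 4 and 0 to 2 in cartilage, and 32 to 53 higher over whole sections; the higher value came without adult eye 2 in retina and in the adult muscle count, and otherwise without adult eye 1. The causes were not tested. Shares of all genes are not given for the fold-rule counts with Leiden clusters or with 1 adult eye left out. The other 263 values moved less. Some directions turned: rps27.1 rose in lens with TMM and fell with totals alone, the median lens difference between periods went from 0.72 to -1.31 with totals alone, and the lens minus retina share of adult eye 1 went from -5.75 to 3.41 points without crystallins, as did both adult eyes (24.7 and 19.9 points) without the 45 genes. The 11 named genes that lost their call did so with totals alone, in lens or muscle. RPS19BP1 and RPL7L1 had few UMIs per class.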
